A study of Homo sapiens with 6 samples.

Results

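The genes described here are 10 target genes of the transcriptional co-activators YAP and TAZ, taken by name as CTGF, CYR61, ANKRD1, AMOTL1, AMOTL2, EDN1, FJX1, AXL, AJUBA and PTPN14. All 10 have a row in the deposited RNA-seq table, out of 12654 genes. Each row names 1 transcript. The hg19 positions given below for the members are the span of that transcript, which can be shorter than the gene. The cells were LX2, an established human hepatic stellate line; stellate cells are the liver cells that become matrix-producing myofibroblasts in fibrosis. Each of 3 groups had 2 libraries: shMETTL3-1 and shMETTL3-2, which carried different short hairpin RNAs against human METTL3, and shLuc, which carried a hairpin against firefly luciferase as the control. All 3 groups shared the pLKO.1 lentiviral vector, 10 h of exposure to virus made in HEK293T cells with 1 µg/ml polybrene, selection with 1 µg/ml puromycin, and growth in medium with 10% serum. METTL3 is the enzyme of the complex that places N6-methyladenosine on RNA. All libraries come from 1 cell line, and nothing in the labels says that the 2 libraries of a group were separate cultures, so a p-value here speaks only of how these libraries vary, and that variation may be technical.

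YAP and TAZ do not bind DNA themselves; in the nucleus they join the TEAD transcription factors and switch on genes for matrix signalling, the cytoskeleton and growth. The Hippo kinases LATS1 and LATS2 phosphorylate YAP and TAZ, which keeps them in the cytoplasm. Several targets feed back on the pathway: the motins AMOTL1 and AMOTL2 and the phosphatase PTPN14 bind YAP and hold it outside the nucleus, while AJUBA restrains the LATS kinases. In stellate cells YAP is known to become active as the cells turn into myofibroblasts on stiff matrix, and CTGF is a widely used readout of that activity.

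To show where TEAD could bind just upstream of these genes, the TEAD core GGAATG was searched for on either strand. The window was the 250 bases upstream of the RefSeq start site (GRCh38.p14). It was also searched for TGANTCA, a loose form, with any base in the middle, of the AP-1 element bound by FOS and JUN factors. These factors often act beside TEAD. The motifs searched do not overlap in the sequences shown. Of the members, 9 had a promoter in the RefSeq table, and 3 of these held the TEAD core: CTGF with 3 copies, ANKRD1 with 2 and PTPN14 with 1. The core was found in 11.9% of all 35116 promoters of the same length. The loose AP-1 pattern was found in 6.57% of them and, among the 9, once in ANKRD1, as TGATTCA. A CArG box, the element bound by serum response factor, was in none of the 9 windows and in 1.16% of all promoters. CYR61 was the member not matched. Bases farther upstream, within the gene or at other start sites were not searched, so a member without the core here may hold it elsewhere. The 3 promoters with a TEAD core are printed 5′ to 3′ on the strand of the gene, with the motifs in capitals, because they are the members with that core and include falls (CTGF, ANKRD1) and a rise (PTPN14) with shMETTL3-1. In CTGF the first bases of the TEAD cores lie 169, 104 and 95 bases before the start. In ANKRD1 they lie 220 and 128 bases before it, and in PTPN14 200 bases before it. The match to the loose AP-1 pattern in ANKRD1 begins 195 bases before the start.
CTGF, chr6:131951373-131951622, minus strand: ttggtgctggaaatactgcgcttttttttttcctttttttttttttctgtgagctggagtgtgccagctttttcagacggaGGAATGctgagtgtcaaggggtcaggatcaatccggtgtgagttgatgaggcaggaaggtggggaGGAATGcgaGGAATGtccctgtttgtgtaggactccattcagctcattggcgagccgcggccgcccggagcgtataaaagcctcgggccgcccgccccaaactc
ANKRD1, chr10:90921088-90921337, minus strand: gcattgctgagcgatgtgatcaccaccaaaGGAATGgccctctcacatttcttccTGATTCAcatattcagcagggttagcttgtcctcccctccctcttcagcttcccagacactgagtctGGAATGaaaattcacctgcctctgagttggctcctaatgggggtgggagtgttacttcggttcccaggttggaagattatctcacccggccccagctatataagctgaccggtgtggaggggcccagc
PTPN14, chr1:214551603-214551852, minus strand: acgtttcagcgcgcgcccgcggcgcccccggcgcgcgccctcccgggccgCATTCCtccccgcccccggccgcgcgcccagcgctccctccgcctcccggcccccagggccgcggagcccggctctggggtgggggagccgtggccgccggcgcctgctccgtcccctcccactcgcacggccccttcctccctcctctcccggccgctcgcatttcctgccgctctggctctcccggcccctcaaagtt

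The deposited values are whole numbers but not raw counts. Every library had the same median of 552 and the same maximum of 72566, and after sorting, 87.3% of ranks held an identical value in all 6 libraries. Each value is therefore called a score, a value assigned by rank from a set that the libraries share, and depth per library is unknown. The rank may be one within a block of the genes and not over all of them: 205 of 205 genes that lay in the bands described next, below the top one, in all libraries kept the same position within their band. From a score of 6323 upward each library falls into 36 bands of 10 genes with closely similar scores, so the scores of the highest genes, among them CYR61, AXL and CTGF, move in steps. Changes are given as log2 of the score plus 1, fitted by limma over the 12413 genes whose mean score reached 50, with p-values adjusted by Benjamini-Hochberg over all of them and a call at an adjusted p under 0.05. METTL3 itself scored 274 and 256 with shMETTL3-1 and 148 and 132 with shMETTL3-2, against 536 and 552 with shLuc. The median gap between replicates was a log2 of 0.08 to 0.10 in the 3 groups, over all genes tested.

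Of 9 stellate cell markers, 6 had values, among them COL1A1, COL1A2, PDGFRB and ACTA2, and their summed score was 126354 to 126798 with shMETTL3-1, 75618 to 80768 with shMETTL3-2 and 129291 to 137017 with shLuc. COL1A1, at the maximum of 72566 in the shMETTL3-1 and shLuc libraries, and VIM make up most of these sums, and single markers differed widely. ACTA2, smooth muscle actin, scored 917 and 1040 with shMETTL3-1 and 1394 and 1694 with shMETTL3-2, against 8266 and 9713 with shLuc. COL3A1, a fibrillar collagen chain, scored 5131 and 5280 with shMETTL3-1 and 12146 and 15434 with shMETTL3-2, against 4631 and 6150 with shLuc. The defining markers DES and LRAT were not analysed here. Of markers of other cell types, the 1 hepatocyte marker with values (of 4), ALB, scored 139 to 144, 130 to 140 and 132 to 250 in the same order of groups. The 2 cholangiocyte markers (of 4) summed to 812 to 980, 384 to 484 and 434 to 442, the 2 endothelial markers (of 4) to 57 to 89, 53 to 55 and 236 to 268, and the 3 macrophage markers (of 4) to 1167 to 1514, 1446 to 1451 and 841 to 867. LIN28B, the 1 marker of the virus-producing HEK293T cells with values (of 4), scored 172 and 221 with shMETTL3-1 and was listed at 0 in all shMETTL3-2 and shLuc libraries. These sums move with the groups, and their part in the results below was not tested.

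With shMETTL3-1, 9 of the 10 targets were called: CTGF, CYR61, EDN1, ANKRD1 and AMOTL2 fell, and AMOTL1, PTPN14, FJX1 and AXL rose. With shMETTL3-2, 7 were called: CTGF, CYR61, EDN1, AMOTL2, AXL and AJUBA fell, and FJX1 rose. These counts stand beside a wide background, since 58.7% of all genes tested were called with shMETTL3-1 (30.3% higher and 28.4% lower) and 59.6% with shMETTL3-2 (30.8% higher and 28.8% lower). The median log2 change of the 10 was -0.17 with shMETTL3-1, against 0.01 over all genes tested, and -0.31 with shMETTL3-2, against 0.01 over all genes tested. CTGF, CYR61, EDN1 and AMOTL2 fell with both hairpins, as did 13.4% of all genes, FJX1 rose with both, as did 15.7%, and AXL was called in opposite directions, as were 10.5%. Both comparisons use the same shLuc libraries. By the bare criterion that the 2 libraries of each group do not overlap, all 10 genes differed from shLuc with shMETTL3-1, 5 higher and 5 lower, beside 41.4% and 38.0% of all genes tested. With shMETTL3-2, 1 was higher and 6 were lower than shLuc in this sense, beside 40.4% and 38.1%. Non-overlap is thus common in this table and is given below only to describe the values. In bulk RNA, less RNA per cell and fewer cells making it cannot be told apart.

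**Figure D1:**
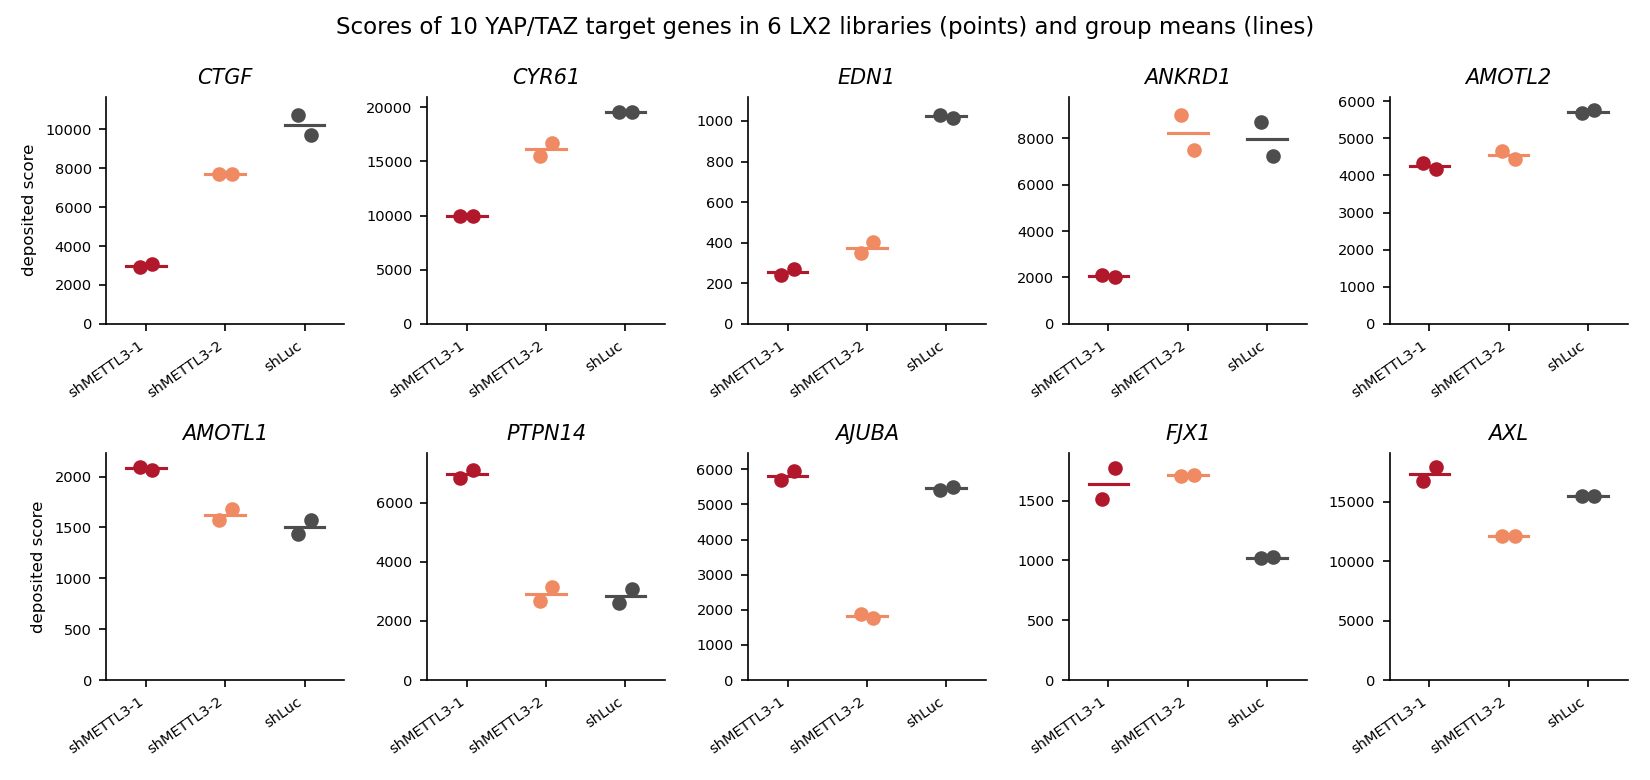
Deposited score (vertical axis, from 0) of each of the 10 genes in the shMETTL3-1, shMETTL3-2 and shLuc libraries; points are the 2 libraries of a group and lines their mean. CTGF, CYR61, EDN1 and AMOTL2 lie below shLuc with both hairpins, ANKRD1 with shMETTL3-1 and AJUBA with shMETTL3-2, while PTPN14 stands apart with shMETTL3-1 and FJX1 with both hairpins.

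Among the secreted products, CTGF encodes a matricellular protein, also named CCN2, that promotes scarring in liver (ENSG00000118523, chromosome 6, 132269316 to 132272513 in hg19, minus strand). It scored 2917 and 3068 with shMETTL3-1 and 7689 in both shMETTL3-2 libraries, against 10747 and 9709 with shLuc. The 3 groups did not overlap, and the shMETTL3-1 libraries were the lowest. CTGF was 3.41-fold lower with shMETTL3-1 (log2 -1.77, SE 0.06, adjusted p = 1.98e-06) and 1.33-fold lower with shMETTL3-2 (log2 -0.41, SE 0.06, adjusted p = 0.00106). The change with shMETTL3-2 is a distance between bands of scores: both of its libraries were in band 27 from the top, against bands 16 and 19 for shLuc. It was 2.57-fold lower with shMETTL3-1 than with shMETTL3-2 (log2 -1.36, adjusted p = 3.76e-06).

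CYR61, the closest relative of CTGF in this set and also named CCN1, is a matricellular protein that binds integrins (ENSG00000142871, chromosome 1, 86046444 to 86049645, plus strand). It scored 9959 in both shMETTL3-1 libraries and 15461 and 16744 with shMETTL3-2, against 19516 in both shLuc libraries. The order of groups was that of CTGF, again with no overlap, and the fall was smaller: 1.96-fold with shMETTL3-1 (log2 -0.97, SE 0.06, adjusted p = 1.3e-05) and 1.21-fold with shMETTL3-2 (log2 -0.28, SE 0.06, adjusted p = 0.00463). In bands from the top, CYR61 stood at 18 in both shMETTL3-1 libraries and at 9 and 8 with shMETTL3-2, against 6 in both shLuc libraries. Because replicates tie inside a band, the small SE of CYR61 is not a measured precision. For shMETTL3-1 minus shMETTL3-2 the log2 difference was -0.69 (adjusted p = 4.82e-05). Over the 6 libraries the log2 scores of CTGF and CYR61 had a Pearson correlation of 0.99, a description of 3 groups of 2 libraries that share their normalisation.

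EDN1 encodes the precursor of endothelin-1, a peptide that makes stellate cells contract (ENSG00000078401, chromosome 6, 12290596 to 12297427, plus strand). Its score was 241 and 268 with shMETTL3-1 and 348 and 404 with shMETTL3-2, against 1028 and 1017 with shLuc. Every library of either hairpin lay well below both shLuc libraries. EDN1 fell 4.01-fold with shMETTL3-1 (log2 -2.004, SE 0.10, adjusted p = 5.56e-06) and 2.72-fold with shMETTL3-2 (log2 -1.45, SE 0.10, adjusted p = 2.11e-05). It was 1.47-fold lower with shMETTL3-1 than with shMETTL3-2 (log2 -0.56, adjusted p = 0.00185). The enzyme that cleaves the precursor to the active peptide, ECE1, lay at a log2 of 0.05 relative to shLuc with shMETTL3-1 (adjusted p = 0.482) and fell by 0.27 on the log2 scale with shMETTL3-2 (adjusted p = 0.00528). EDN2, EDN3 and the receptors EDNRA and EDNRB were not analysed here.

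ANKRD1 encodes an ankyrin repeat protein that acts as a transcriptional cofactor and, in muscle, binds the sarcomere (ENSG00000148677, chromosome 10, 92671853 to 92681033, minus strand). It scored 2112 and 1999 with shMETTL3-1 and 8981 and 7506 with shMETTL3-2, against 8681 and 7232 with shLuc. The shMETTL3-1 libraries stood apart, whereas the shMETTL3-2 and shLuc libraries overlapped. ANKRD1 fell 3.85-fold with shMETTL3-1 (log2 -1.95, SE 0.11, adjusted p = 2.2e-05). With shMETTL3-2 its log2 change was 0.05, with a 95% interval of -0.22 to 0.32 (adjusted p = 0.72). The difference between the hairpins, -1.998 on the log2 scale (shMETTL3-1 minus shMETTL3-2, adjusted p = 1.61e-05), was the largest of the 10. ANKRD23, a related gene, lay at log2 -0.20 with shMETTL3-1 (adjusted p = 0.556) and at -0.55 with shMETTL3-2 (adjusted p = 0.124).

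**Figure D2:**
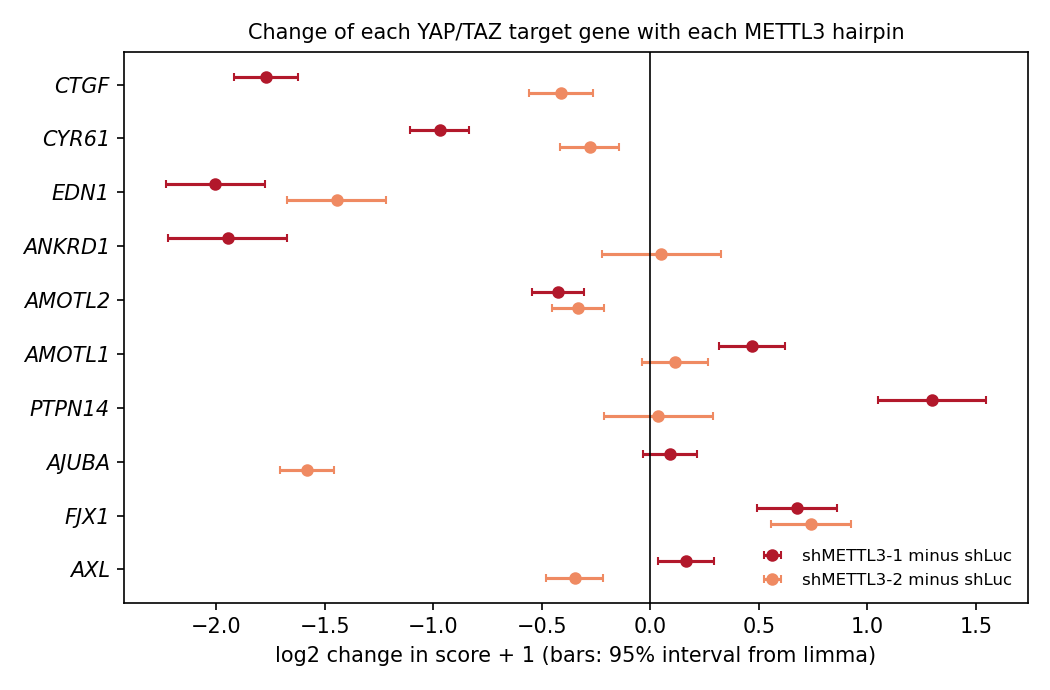
Log2 change in score plus 1 (horizontal axis) of each of the 10 genes for shMETTL3-1 minus shLuc and shMETTL3-2 minus shLuc; points are limma estimates and bars their 95% intervals, with 2 libraries a group. ANKRD1, PTPN14 and AMOTL1 have intervals away from 0 with shMETTL3-1 and across 0 with shMETTL3-2, and AJUBA the other way round.

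The targets that hold YAP back moved in different directions. AMOTL2, a motin that binds YAP at junctions (ENSG00000114019, chromosome 3, 134074716 to 134093436, minus strand), scored 4340 and 4180 with shMETTL3-1 and 4664 and 4433 with shMETTL3-2, against 5688 and 5757 with shLuc. All 4 hairpin libraries were lower than the shLuc libraries. AMOTL2 fell 1.34-fold with shMETTL3-1 (log2 -0.43, SE 0.05, adjusted p = 0.000317) and 1.26-fold with shMETTL3-2 (log2 -0.33, SE 0.05, adjusted p = 0.00105). The difference between hairpins was -0.09 in log2 units with a 95% interval of -0.21 to 0.02 (shMETTL3-1 minus shMETTL3-2, adjusted p = 0.141). The founding motin AMOT, which is not among the 10, fell with both hairpins too (log2 -0.68 with shMETTL3-1, adjusted p = 0.00335, and -0.46 with shMETTL3-2, adjusted p = 0.0189).

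AMOTL1, the third motin (ENSG00000166025, chromosome 11, 94439597 to 94532705, plus strand), went the other way. It scored 2094 and 2064 with shMETTL3-1 and 1568 and 1678 with shMETTL3-2, against 1432 and 1572 with shLuc. The shMETTL3-1 libraries were the highest, and the ranges of shMETTL3-2 and shLuc overlapped. AMOTL1 rose 1.39-fold with shMETTL3-1 (log2 0.47, SE 0.06, adjusted p = 0.000665) and lay at a log2 of 0.11 relative to shLuc with shMETTL3-2 (95% interval -0.04 to 0.27, adjusted p = 0.174). It was 1.28-fold higher with shMETTL3-1 than with shMETTL3-2 (log2 0.36, adjusted p = 0.00226).

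PTPN14, a cytoplasmic tyrosine phosphatase that binds YAP (ENSG00000152104, chromosome 1, 214522039 to 214724566, minus strand), had the largest rise of the 10 with shMETTL3-1. Its score was 6826 and 7093 with shMETTL3-1 and 2667 and 3159 with shMETTL3-2, against 2602 and 3072 with shLuc. The shMETTL3-2 and shLuc libraries overlapped, and both shMETTL3-1 libraries stood above them. The rise with shMETTL3-1 was 2.46-fold (log2 1.30, SE 0.10, adjusted p = 7.32e-05), while the log2 change with shMETTL3-2 was 0.04 (95% interval -0.21 to 0.29, adjusted p = 0.774). For shMETTL3-1 minus shMETTL3-2 the log2 difference was 1.26 (adjusted p = 6.94e-05). PTPN14 and ANKRD1 ran opposite to each other over the 6 libraries, with a Pearson correlation of -0.998 of their log2 scores. That was the strongest correlation of any pair among the 10, and it describes 3 groups of 2 libraries that share their normalisation. The relative PTPN21, which is not among the 10, lay at a log2 of -0.18 relative to shLuc with shMETTL3-1 (adjusted p = 0.115) and rose with shMETTL3-2 (log2 1.75, adjusted p = 6.93e-06).

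AJUBA, a LIM domain protein that restrains LATS kinases at junctions (ENSG00000129474, chromosome 14, 23440383 to 23451851, minus strand), was called with shMETTL3-2 and not with shMETTL3-1. It scored 5692 and 5955 with shMETTL3-1 and 1882 and 1770 with shMETTL3-2, against 5426 and 5506 with shLuc. Only the shMETTL3-2 libraries were lower than shLuc; the shMETTL3-1 libraries lay slightly above. AJUBA fell 2.99-fold with shMETTL3-2 (log2 -1.58, SE 0.05, adjusted p = 1.56e-06) and lay at a log2 of 0.09 relative to shLuc with shMETTL3-1 (95% interval -0.03 to 0.22, adjusted p = 0.178). It was 3.19-fold higher with shMETTL3-1 than with shMETTL3-2 (log2 1.67, adjusted p = 9.79e-07). Of its relatives in the same family, LIMD1 fell with both hairpins (log2 -0.30 with shMETTL3-1, adjusted p = 0.00284, and -0.39 with shMETTL3-2, adjusted p = 0.000738), and WTIP fell with shMETTL3-1 (log2 -0.29, adjusted p = 0.0178) and rose with shMETTL3-2 (log2 0.43, adjusted p = 0.00302).

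FJX1 is the human counterpart of four-jointed, a Golgi kinase that in Drosophila acts on the Fat and Dachsous cadherins upstream of Hippo (ENSG00000179431, chromosome 11, 35641236 to 35642400, plus strand). It scored 1514 and 1772 with shMETTL3-1 and 1704 and 1718 with shMETTL3-2, against 1020 and 1028 with shLuc. All hairpin libraries were higher than shLuc, and the 2 hairpins overlapped. FJX1 rose 1.60-fold with shMETTL3-1 (log2 0.68, SE 0.08, adjusted p = 0.00027) and 1.67-fold with shMETTL3-2 (log2 0.74, SE 0.08, adjusted p = 0.000172). The difference between hairpins had a 95% interval of -0.25 to 0.12 on the log2 scale (shMETTL3-1 minus shMETTL3-2, adjusted p = 0.51).

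AXL is a receptor tyrosine kinase of the TAM family, whose ligand is GAS6 (ENSG00000167601, chromosome 19, 41725108 to 41767671, plus strand). Its score was 16744 and 17938 with shMETTL3-1 and 12154 in both shMETTL3-2 libraries, against 15461 in both shLuc libraries. In bands from the top these are 8 and 7 with shMETTL3-1 and 13 in both shMETTL3-2 libraries, against 9 in both shLuc libraries, so the shMETTL3-1 libraries lay 1 and 2 bands above shLuc. AXL fell 1.27-fold with shMETTL3-2 (log2 -0.35, SE 0.06, adjusted p = 0.00135). Because the replicates of both groups in this comparison tie inside a band, that SE is not a measured precision. The rise with shMETTL3-1 was 1.12-fold (log2 0.16, SE 0.06, adjusted p = 0.0369) and was lost in 7 of 14 alternative fits; without shMETTL3-1 replicate 2 it was 0.12 on the log2 scale (adjusted p = 0.199; adjusted p over the alternatives 0.0364 to 0.199). AXL was 1.43-fold higher with shMETTL3-1 than with shMETTL3-2 (log2 0.51, adjusted p = 0.000175). GAS6 rose with shMETTL3-1 (log2 0.41, adjusted p = 0.000363) and stood at a change of -0.02 with shMETTL3-2 (adjusted p = 0.722). Of the other TAM receptors, MERTK rose with shMETTL3-1 (log2 0.69, adjusted p = 0.00104) and fell with shMETTL3-2 (log2 -0.29, adjusted p = 0.0451), and TYRO3 fell with shMETTL3-1 (log2 -0.25, adjusted p = 0.017) and stood at a change of -0.05 with shMETTL3-2 (adjusted p = 0.592).

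Between the hairpins, 8 of the 10 genes differed past the threshold, 4 higher and 4 lower with shMETTL3-1 than with shMETTL3-2, beside 63.0% of all genes tested (31.1% higher and 31.9% lower). Without overlap between the hairpins, 4 were higher and 5 lower with shMETTL3-1, beside 41.3% and 40.9% of all genes tested. The 4 called lower were CTGF, CYR61, EDN1 and ANKRD1, and the 4 called higher were AMOTL1, PTPN14, AJUBA and AXL. METTL3 was also 1.89-fold higher with shMETTL3-1 than with shMETTL3-2 (adjusted p = 0.00016), so in CTGF, CYR61, EDN1 and ANKRD1 the hairpin with less loss of METTL3 had the lower target score. Whether that order comes from METTL3 or from another property of the hairpins cannot be told apart with 1 level of knockdown per hairpin.

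A further list of 37 genes described as YAP/TAZ targets, none of them among the 10, had 36 genes tested. With shMETTL3-1, 20 fell, 9 rose and 7 did not pass, with a median log2 change of -0.61, beside 28.4% lower and 30.3% higher among all genes tested. Without shLuc replicate 2, 5 rose and 20 fell. With shMETTL3-2, 20 fell, 6 rose and 10 did not pass, with a median of -0.19, beside 28.8% lower and 30.8% higher among all genes. The medians over all genes tested were both 0.01, and the list was not tested as a set. Of the 36, 13 fell with both hairpins and 4 rose with both, beside 13.4% and 15.7% of all genes. GADD45A, NT5E and INHBA, named after their values were seen, were called in opposite directions, as were 10.5% of all genes tested. FGF2, a fibroblast growth factor, scored 938 and 1039 with shMETTL3-1 and 1722 and 1688 with shMETTL3-2, against 2953 and 2864 with shLuc (log2 -1.56 with shMETTL3-1, adjusted p = 2.77e-06, and -0.77 with shMETTL3-2, adjusted p = 5.17e-05). By the mean of both changes, the next of the 13 shared falls were those of the myelin protein gene PMP22 (log2 -0.95 with shMETTL3-1 and -1.30 with shMETTL3-2), the growth factor-binding membrane protein gene CRIM1 (-1.47 with shMETTL3-1 and -0.73 with shMETTL3-2) and IGFBP3, which encodes an IGF-binding protein (-1.49 with shMETTL3-1 and -0.61 with shMETTL3-2). Among the 4 that rose with both were ETV5, an ETS transcription factor (log2 1.13 with shMETTL3-1 and 1.15 with shMETTL3-2), FSTL1, a secreted glycoprotein, and MARCKS, an actin-regulating kinase substrate (0.53 with shMETTL3-1 and 0.48 with shMETTL3-2). FSTL1 stood at the maximum of 72566 in all 4 hairpin libraries and at 44536 with shLuc, so its rise is truncated. The TEAD core was in the promoters of 6 of the 26 genes of this list that matched a RefSeq promoter.

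**Figure D3:**
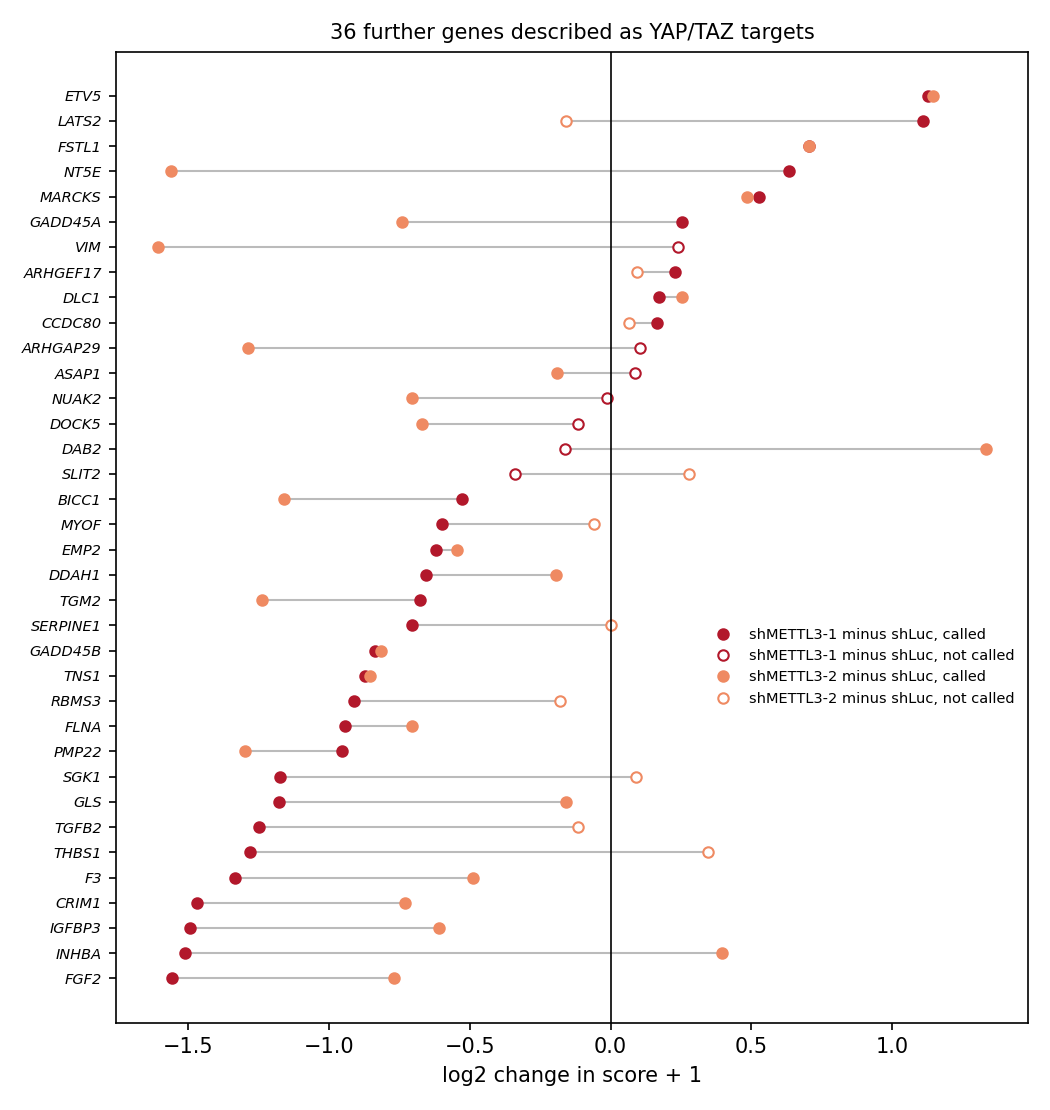
Log2 change in score plus 1 (horizontal axis) for 36 further YAP/TAZ target genes, with shMETTL3-1 minus shLuc and shMETTL3-2 minus shLuc joined by a line; filled points passed an adjusted p of 0.05 and open points did not. With each hairpin 20 genes lie below 0 with a call, and many genes, such as NT5E, DAB2 and INHBA, have hairpins on opposite sides of 0.

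Cell cycle genes described as YAP/TAZ targets were counted apart. Of 15 tested, 9 fell, 3 rose and 3 did not pass with shMETTL3-1 (median log2 change -0.56), and 9 fell, 2 rose and 4 did not pass with shMETTL3-2 (median -0.38). Among all genes tested 28.4% fell and 30.3% rose with shMETTL3-1, and 28.8% fell and 30.8% rose with shMETTL3-2. With both hairpins 6 fell and 1 rose, beside 13.4% and 15.7% of all genes tested, and 1 was called in opposite directions, beside 10.5%. TOP2A, a DNA topoisomerase, was among the 6 that fell (log2 -1.25 with shMETTL3-1 and -1.09 with shMETTL3-2, SE 0.23 for each). Its replicates lay far apart, at 6143 and 4724 with shMETTL3-2 and 14078 and 9383 with shLuc. DUT, which encodes a dUTPase, was the 1 that rose with both (0.92 with each hairpin), and MCM3, a subunit of the replicative helicase, was called in opposite directions; TOP2A, DUT and MCM3 were named after their values were seen.

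Of the regulators themselves, YAP1 rose with both hairpins (log2 0.30 with shMETTL3-1, adjusted p = 0.00769, and 0.60 with shMETTL3-2, adjusted p = 0.000288). WWTR1, which encodes TAZ, scored 831 and 953 with shMETTL3-1 and 1078 and 1028 with shMETTL3-2, against 758 and 845 with shLuc. It rose with shMETTL3-2 (log2 0.40, adjusted p = 0.00662) and stood at a change of 0.15 with shMETTL3-1 (adjusted p = 0.176). TEAD1 and TEAD3, which carry YAP and TAZ on DNA, both fell: TEAD1 changed by log2 -0.87 with shMETTL3-1 and -0.39 with shMETTL3-2, and TEAD3 by -0.28 with shMETTL3-1 and -0.77 with shMETTL3-2. TEAD4 fell with shMETTL3-1 (log2 -0.78, adjusted p = 0.000107) and stood at a change of -0.01 with shMETTL3-2 (adjusted p = 0.92). TEAD2 changed by 0.05 with shMETTL3-1 (adjusted p = 0.614) and by -0.19 with shMETTL3-2 (adjusted p = 0.0812). LATS1 rose with both (log2 0.58 with shMETTL3-1 and 0.53 with shMETTL3-2). LATS2, itself a target and counted in the further list as well, rose with shMETTL3-1 (1.11) and stood at a change of -0.16 with shMETTL3-2 (adjusted p = 0.0556). Of all 31 Hippo genes tested, 9 rose and 13 fell with shMETTL3-1, and 9 rose and 14 fell with shMETTL3-2, with medians of -0.04 with shMETTL3-1 and -0.18 with shMETTL3-2; 3 rose with both, 8 fell with both and 5 were called in opposite directions. Among all genes tested 30.3% rose and 28.4% fell with shMETTL3-1, 30.8% rose and 28.8% fell with shMETTL3-2, 15.7% rose with both, 13.4% fell with both and 10.5% were called in opposite directions. These values are RNA scores and say nothing of where YAP or TAZ proteins were in the cell.

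Candidates were 3053 genes (3054 for CYR61 and AMOTL2) with a range of group means of at least 1 on the log2 scale. None had a score under 10 or at the maximum. Among them were sought the genes whose log2 scores correlated most closely with a member over the 6 libraries. For CTGF these were ZNF850, UBA3 and KLHL8, for CYR61 they were PDGFRB, ZNF641 and ENTPD7, for ANKRD1 they were UXS1, POLR3G and KCNQ3, and for AMOTL2 they were MPP7, UHRF1 and GPD1L. Each had a Pearson correlation of at least 0.99 with its member, over 6 libraries that form 3 groups and share their normalisation. A correlation does not compare the size of changes. AMOTL2 itself fell by less than the range asked of candidates (log2 -0.43 with shMETTL3-1), so genes with changes as small as its own were left out. GPD1L, for example, scored 68 and 64 with shMETTL3-1, against 328 and 342 with shLuc. PDGFRB, a receptor tyrosine kinase that drives stellate cell growth, scored 680 and 656 with shMETTL3-1 and 1236 and 1419 with shMETTL3-2, against 1808 and 1718 with shLuc.

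Overlaps with other genes were sought by whole spans, introns included, in the GENCODE v44 annotation lifted to GRCh37. The span of a member was that of its listed transcript. By span, 6 of the 10 members overlap another gene, by 8 genes in all. Examples are the antisense transcript PIWIL4-AS1 at AMOTL1 and the pseudogene KRT18P12 at PTPN14. Of the 8, LINC01013, which overlaps CTGF on the opposite strand, has a row of its own here. Others lie on the same strand as the member. At AJUBA this is a protein-coding gene without a symbol (chromosome 14, 23415479 to 23451467) that spans nearly all of AJUBA and has no row. At AMOTL2 it is the pseudogene RPL39P5, and at PTPN14 an lncRNA and a processed pseudogene. Whether exons overlap was not examined. No source states whether counting used strand, so reads from any overlapping exons cannot be told apart. For overlapping exons on the same strand, stranded counting would not separate the reads either.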

How the data were processed

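RNA-seq was done on 6 LX2 libraries. The genome build of the mapping was hg19, per the labels' protocols. DESeq2 is listed in the submitters' processing notes without a role; no aligner, counting tool or annotation release is given in the sources used here. This deposited table holds 1 score per gene and library, which the authors call counts. Column totals of 16535130 to 16536605, a shared median and a shared maximum show that the score is a normalised value, so depth is unknown and no counting error can be given. Groups and replicates come from the source names in the labels.

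The log2 of the score plus 1 was fitted with limma 3.58.1 in R 4.3.3 (1 mean per group, variance trend, robust moderation, 3 residual degrees of freedom) for genes whose mean score reached 50. P-values are two-sided and adjusted over all 12413 genes tested. The fit was tried on simulated scores with independent normal noise for each gene. The simulation did not build in the bands or the shared distribution of these scores, so it cannot show how the fit performs on them. The 10 members and all lists were chosen with earlier results of these data known. Named beyond them were the 4 largest rises and falls of the further list shared by both hairpins with no value under 10, the TEAD, LATS, YAP and TAZ genes, relatives of the members, and the 3 genes most like 4 of the members. Motifs were searched with Python 3.11.15. The alternatives were other pseudocounts, filters, variance models, scales and samples, and leaving out each library.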

Additional observations from a re-analysis of the deposited data

Results flagged for a closer look

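In 8 of the 10 target genes the changes with the 2 hairpins differed by a test of the difference itself (limma, shMETTL3-1 minus shMETTL3-2, adjusted over all genes tested), beside 63.0% of all genes. Lower with shMETTL3-1 than with shMETTL3-2 were CTGF (log2 -1.36), CYR61 (-0.69), ANKRD1 (-1.998) and EDN1 (-0.56). Higher with shMETTL3-1 than with shMETTL3-2 were AMOTL1 (0.36), AXL (0.51), AJUBA (1.67) and PTPN14 (1.26). In each of the 8, both libraries of 1 hairpin lay beyond both libraries of the other. This adds no support, because the 8 were chosen by a difference in these same libraries. AMOTL2, which was not called, did not overlap either. Of all genes tested, 41.3% were higher and 40.9% lower with shMETTL3-1 without overlap between the hairpins.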

How the results depend on the processing

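Over 14 alternatives, 408 of 420 values of the members kept their direction and their side of the threshold. The rise of AXL with shMETTL3-1 lost its call in 7, at log2 0.16 without trend and robust moderation (adjusted p = 0.0575), 0.16 with only the 2 groups of the contrast (adjusted p = 0.0559), and 0.12 to 0.16 when 1 of 5 libraries was left out. Of the changes that were not called, 5 turned sign: ANKRD1 with shMETTL3-2 to -0.078 without shMETTL3-2 replicate 1 and to -0.080 without shLuc replicate 2, PTPN14 with shMETTL3-2 to -0.084 without shMETTL3-2 replicate 2 and to -0.082 without shLuc replicate 1, and FJX1 between the hairpins to 0.051 without shMETTL3-1 replicate 1. Over the libraries left out these ranged from -0.080 to 0.183 for ANKRD1, from -0.084 to 0.16 for PTPN14 and from -0.176 to 0.051 for FJX1. The cause was not tested. Counts of genes, members and list genes called, in both directions together, stayed within 1.5 times the reported ones. Split by direction, the further list had 5 in place of 9 rises with shMETTL3-1 without shLuc replicate 2. Leaving out 1 library, 5746 to 7436 genes were called with shMETTL3-1 and 6364 to 6965 with shMETTL3-2. Same-numbered libraries deviated together with correlations of 0.088 to 0.443, each positive, as a hint from the data, but 1 was under 0.1 and no label pairs them. With the replicate block 7698 genes were called with shMETTL3-1, 7769 with shMETTL3-2 and 8196 between the hairpins, and the counts of members called stayed at 9, 7 and 8. With no depth, precision rests on 2 libraries a group.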

Other observations

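The bands of scores had a fixed inner order. Of 205 genes that lay in these bands, below the top one, in all 6 libraries, 205 held the same position within their band in every library. CYR61 and AXL each held the highest score of their band in all 6 libraries, whichever band they were in.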
